A study of Ovis aries with 12 samples.

Results

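Homeobox genes encode transcription factors that bind DNA through a homeodomain, and 55 of them were listed for the hippocampus of the ewe, from the ONECUT, DLX, LHX, MEIS, PBX, sine oculis, IRX, POU, ZFHX and ZEB families and a few single genes. Members were taken by their symbol in the deposited gene table, which named 53 of the 55 among 33609 genes. Of these 53, 52 had at least 1 count and 44 passed edgeR's filter on low counts. The remaining pair of listed genes, LHX2 and CUX2, stand in the table under placeholder names and are described apart.

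In the embryo these factors divide the forebrain into territories. DLX, LHX8, ISL1 and SIX3 act in the subpallium, the source of striatal cells and of cortical and hippocampal interneurons. EMX2, LHX2 and OTX1 act in the pallium, from which the hippocampus and cortex grow, and IRX, LHX1, LHX5, LHX9 and ONECUT genes act in the diencephalon, brainstem and other sites. Many stay active in adult neurons, where they help to hold cell identity, and MEIS, PBX and PKNOX proteins of the TALE class bind DNA as partners of one another.

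Adult ewes of the Ile-de-France breed, 6 controls and 6 exposed to chronic stress, gave RNA from dorsal and from ventral hippocampus. The labels do not say what the stress was. RNA of 2 ewes was mixed in equal amounts for every library, so that the 4 groups of dorsal control, dorsal stress, ventral control and ventral stress held 3 libraries each and differences among single ewes are partly averaged out. All 12 ewes gave both regions, although pools were treated as independent in the tests. Library totals ran from 12254743 to 53775720 counts. The design text shortens the dorsal region to DG without saying how it was dissected. The libraries differed within groups along a common gradient: on the first principal component dorsal control 1, dorsal stress 1 and ventral control 1 lay at -81.3, -70.2 and -103, and dorsal stress 3, ventral control 3 and ventral stress 3 at 64, 105 and 80.8. The 10 markers of excitatory neurons were all measured and summed to between 2990 and 7500 CPM per library. Levels are CPM, counts per 1000000 of a library's total after adjustment of that total by edgeR's TMM factor. They are not divided by gene length, so they are compared between libraries and not between genes. Differences are log2 fold changes with their standard error (SE), and a gene was called at a Benjamini-Hochberg adjusted p under 0.05 over all 17806 tested genes in edgeR's quasi-likelihood test. Because the tissue is a mixture, fewer cells of a type and less RNA per cell cannot be told apart.

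The first comparison was dorsal against ventral hippocampus over both conditions. Of the 44 tested members 6 were called: ONECUT2 was higher in dorsal tissue, and LHX9, MEIS1, MEIS2, PBX3 and DLX6 were lower. Among all tested genes 4.51% were called (803 genes), 1.44% higher and 3.07% lower in dorsal tissue. The members' share was 13.6%. Members were chosen with earlier results of these data known, so this share is no test of homeobox genes as a family. The median log2 fold change of the 44 was -0.19, with 16 above and 28 below 0. Over all tested genes the median was -0.02, with 8431 above and 9375 below 0. A further 6 members had an unadjusted p under 0.05 without passing. In 8 members the levels of the 6 dorsal and 6 ventral libraries did not overlap at all, as in 4.90% of all tested genes.

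**Figure D1:**
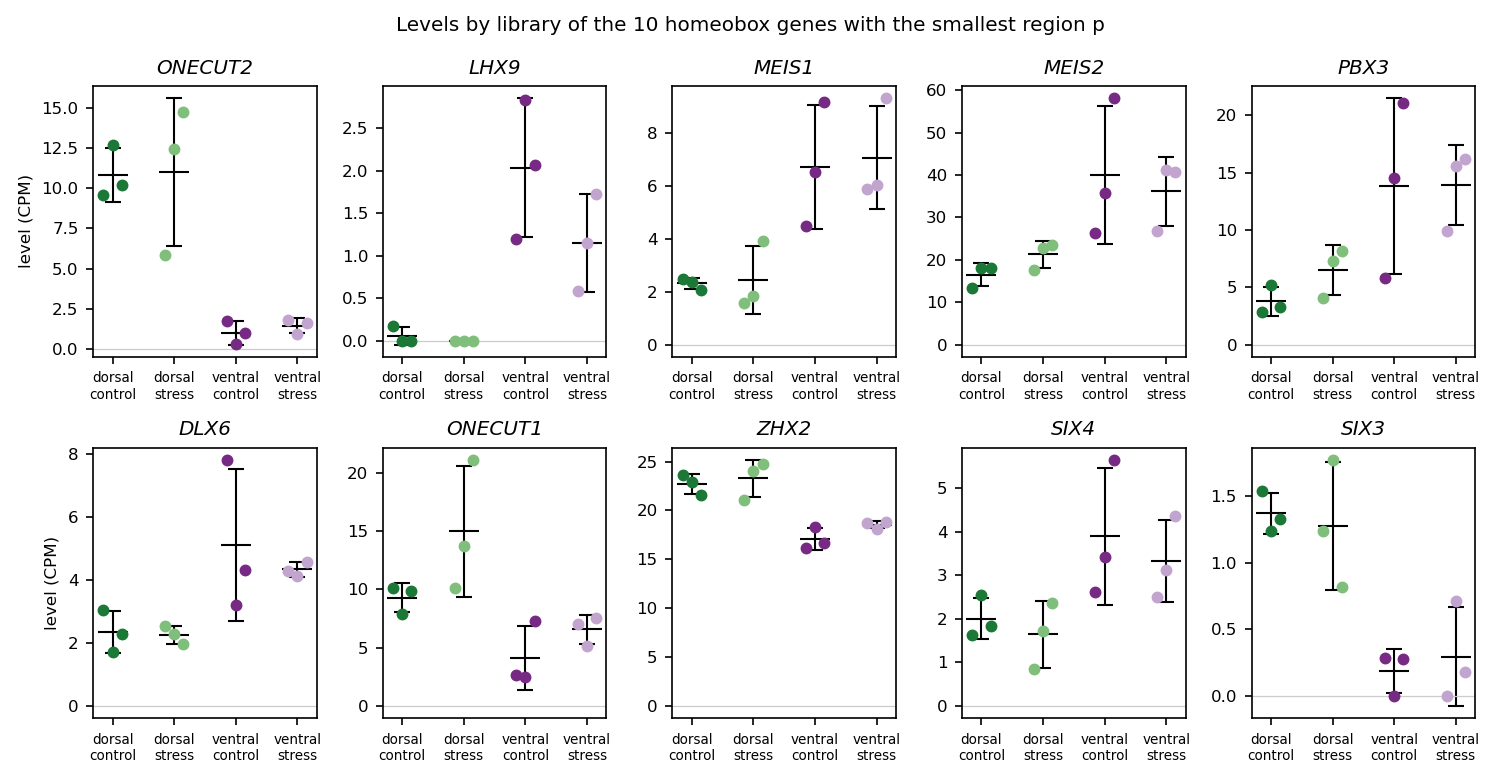
Levels in CPM (vertical axis, linear) of the 10 members with the smallest region p in each library, by group; points are libraries, the wide bar is the group mean and the whiskers are the SD (n = 3). All 6 dorsal libraries lie above all 6 ventral libraries for ONECUT2, ONECUT1, ZHX2 and SIX3, and below them for LHX9, MEIS1, MEIS2 and DLX6.

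The cut-homeodomain genes held the one member that was called higher in dorsal tissue. ONECUT2 (NCBI GeneID 101114994), a factor best known from liver, pancreas and retina, carries a cut domain beside its homeodomain. It stood at 9.55, 12.7 and 10.2 CPM in dorsal control libraries 1 to 3 and at 5.87, 12.4 and 14.7 CPM in dorsal stress libraries 1 to 3. In ventral control libraries it stood at 1.75, 0.298 and 0.98 CPM and in ventral stress libraries at 1.82, 0.909 and 1.64 CPM. The lowest dorsal library, dorsal stress 1, was still above the highest ventral one. The region difference was 3.15 ± 0.40 (8.86-fold, edgeR adjusted p = 0.00236), and it kept its call when each of the 12 libraries was left out in turn, with values from 2.95 to 3.47. Within control ewes the difference was 3.39 ± 0.58 (adjusted p = 0.0249) and within stressed ewes 2.91 ± 0.57 (adjusted p = 0.0672). These did not differ beyond their error (difference -0.48 ± 0.75, adjusted p = 1). The call within control ewes was lost without any of the 3 dorsal control libraries, without dorsal stress 2 and without ventral control 2 or 3 (highest adjusted p = 0.116).

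ONECUT1, the paralogue of ONECUT2, had values in the same direction that missed the threshold. Its dorsal control libraries held 10.1, 7.89 and 9.88 CPM and its dorsal stress libraries 10.1, 13.7 and 21.1 CPM. The ventral control libraries held 2.64, 2.48 and 7.28 CPM and the ventral stress libraries 7.04, 5.18 and 7.51 CPM. The 2 regions did not overlap, although dorsal control 2 and ventral stress 3 lay close together. The region difference was 1.17 ± 0.30 (adjusted p = 0.0581 in edgeR, 0.0031 in DESeq2 and 0.0425 in limma-voom), and it passed in edgeR without ventral control 3 (adjusted p = 0.00598). ONECUT3 had a count of 0 in all 12 libraries, which allows up to 0.245 CPM in the shallowest library (3 counts, counting error only). The other measured genes of this class were CUX1 (-0.10 ± 0.15), a broadly expressed cut factor, and SATB1 (-0.79 ± 0.37), a chromatin organiser of interneurons and other cells. Neither passed (adjusted p = 1 and 0.385).

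Some markers of choroid plexus, the tissue that secretes cerebrospinal fluid, were also higher in dorsal tissue. Of 11 tested markers 3 were called higher (TTR, CLIC6 and AQP1) and IGF2 was called lower, with 5 above and 6 below 0 and a median of -0.14. The list's summed level was 574 to 3080 CPM in dorsal and 306 to 636 CPM in ventral libraries. TTR, the transthyretin gene, gave 360 to 2810 CPM of it in dorsal and 32.5 to 413 CPM in ventral libraries. With the mean of that list as a covariate ONECUT2 had a difference of 3.28 ± 0.60 (adjusted p = 0.0161), as large as without it, while its call within control ewes was lost (3.59 ± 0.90, adjusted p = 0.106). That of ONECUT1 was then 0.47 ± 0.32 (adjusted p = 0.308), and that of SATB1 was -1.62 ± 0.36 and passed (adjusted p = 0.0343). Because markers of the list went both ways, its mean is a poor measure of that tissue. The part of choroid plexus in these values was not tested.

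LHX9 (GeneID 101101906), a LIM-homeodomain factor of the developing pallium, diencephalon and gonad, was read almost only in ventral tissue. Among the dorsal libraries dorsal control 1 held 9 counts (0.177 CPM) and the other 5 were at 0. The ventral control libraries held 1.2, 2.83 and 2.07 CPM and the ventral stress libraries 0.58, 1.15 and 1.73 CPM. All 6 ventral libraries lay above all 6 dorsal ones. Summed over libraries there were 283 ventral counts against 9 dorsal counts, a 29.8-fold difference after scaling. In stressed ewes, where 102 ventral counts stood against none, the level in ventral tissue was at least 20.9-fold higher, taking a floor of 3 counts over the dorsal group. The edgeR call had an adjusted p of 0.0116 and was kept without each library in turn (highest 0.036). It was lost with a replicate block, which treats same-numbered dorsal and ventral pools as pairs (adjusted p = 0.0526). Its fitted value of -6.47 ± 1.06 depends on the prior count, since a whole group is at 0.

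The other LIM genes were scarce. LHX1, a factor of the diencephalon and of several early neuron types, lay between 0.149 and 0.553 CPM and did not differ detectably between regions (-0.42 ± 0.50, adjusted p = 0.97). LHX5 had 8 counts in all, in 3 libraries, and LHX8, a factor of basal forebrain cholinergic neurons, had 14 in 5. ISL1, which marks striatal projection and motor neurons, had 5 counts in 4 libraries. These 3 were not tested. CHAT, the acetylcholine-synthesising enzyme of cholinergic neurons, was likewise at or below 0.356 CPM in every library.

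The TALE class gave the largest set of called members, 3 of 10 tested, each lower in dorsal tissue. Over all tested genes 3.07% were called lower there. Because members were chosen with earlier results known, the count is no test of the class. MEIS1 (GeneID 101112041), a partner of PBX proteins, stood at 2.5, 2.38 and 2.07 CPM in dorsal control and at 1.59, 1.82 and 3.92 CPM in dorsal stress libraries. It stood at 4.49, 6.55 and 9.18 CPM in ventral control and at 5.88, 6.04 and 9.33 CPM in ventral stress libraries. The regions did not overlap, and dorsal stress 3 was the highest dorsal library. The difference was -1.54 ± 0.28 (2.91-fold lower, adjusted p = 0.012), and the call was kept without each library in turn (highest adjusted p = 0.0449). It was -1.54 ± 0.40 in control and -1.55 ± 0.41 in stressed ewes, neither past the threshold alone (adjusted p = 0.133 and 0.153).

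MEIS2 (GeneID 101104751), which is also a factor of striatal and olfactory neurons, had a wider spread in ventral tissue. Dorsal control libraries held 13.4, 18.1 and 18 CPM and dorsal stress libraries 17.6, 22.7 and 23.6 CPM. Ventral control libraries held 26.2, 35.8 and 58.1 CPM and ventral stress libraries 26.8, 41.2 and 40.6 CPM. The regions did not overlap. The difference was -1.02 ± 0.22 (2.03-fold lower, adjusted p = 0.0239). That call was lost in 9 of 12 refits that each left out 1 library, the exceptions being those without ventral stress 1 and without ventral control 1 or 3 (highest adjusted p = 0.0695, log2 fold change -1.14 to -0.84).

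PBX3 (GeneID 101105732), a cofactor that binds DNA with MEIS proteins, overlapped between regions in 1 library. It stood at 2.83, 5.21 and 3.28 CPM in dorsal control and 4.03, 7.3 and 8.17 CPM in dorsal stress libraries. Ventral control libraries held 5.79, 14.5 and 21.1 CPM and ventral stress libraries 9.86, 15.6 and 16.2 CPM. Ventral control 1 lay below dorsal stress 2 and 3, so the regions were apart within each condition but not across them. The difference was -1.48 ± 0.33 (2.79-fold lower, adjusted p = 0.0307), and the call was lost in 9 of 12 refits, all but those without ventral stress 1, ventral control 1 or dorsal control 2 (highest adjusted p = 0.0899).

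Their relatives did not pass. PBX2 (-0.38 ± 0.30), PBX4 (0.16 ± 0.17), the PBX partners PKNOX1 (-0.03 ± 0.14) and PKNOX2 (-0.47 ± 0.22), MEIS3 (-0.46 ± 0.30) and the repressors TGIF1 (0.19 ± 0.24) and TGIF2 (-0.20 ± 0.19) had adjusted p-values from 0.413 to 1. PKNOX1 held between 29.3 and 48.7 CPM in all 12 libraries. Over the 10 tested TALE genes the median was -0.42, with 8 below 0. The Iroquois genes of the same class, which pattern the diencephalon and midbrain, were too scarce to test: IRX1 had 95 counts in all, IRX2 58, IRX3 23 and IRX5 2. Of the 23 IRX3 counts 18 lay in ventral control 1.

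The DLX genes, which drive the development of GABA-releasing interneurons, all had values below 0. DLX6 (GeneID 101115361) was the one that passed. It stood at 3.05, 1.71 and 2.3 CPM in dorsal control and 2.54, 2.28 and 1.96 CPM in dorsal stress libraries. Ventral control libraries held 7.83, 3.22 and 4.31 CPM and ventral stress libraries 4.29, 4.15 and 4.59 CPM. Every ventral library lay above every dorsal one, with dorsal control 1 and ventral control 2 next to each other. The difference was -1.03 ± 0.25 (2.04-fold lower, adjusted p = 0.0459). The call was lost without any library but ventral control 2 (highest adjusted p = 0.126), and once the choroid plexus markers entered the fit (-0.66 ± 0.36, adjusted p = 0.216).

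DLX5, the next protein-coding gene to DLX6 in the RefSeq gene order, had -0.53 ± 0.35, and the neighbouring pair DLX1 and DLX2 had -0.32 ± 0.45 and -1.36 ± 0.63. None of these 3 passed (adjusted p = 0.696, 1 and 0.381). DLX2 had 141 counts in all and reached its highest level, 1.42 CPM, in ventral stress 2. Of the other genes of the antennapedia-like class to which DLX belongs, EMX2, which the embryo needs to form the hippocampus, was level across the regions (0.06 ± 0.15), at 18 to 22.8 CPM in dorsal and 16.3 to 25.3 CPM in ventral libraries. MSX1, a gene of the dorsal midline, had -0.69 ± 0.35 (adjusted p = 0.457). VAX1, a gene of the ventral forebrain, had 29 counts, of which 13 lay in ventral stress 2, and was not tested.

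Some markers of several cell types also differed between the regions. The summed level of the inhibitory neuron list was 669 to 820 CPM in dorsal and 962 to 1220 CPM in ventral libraries, with 5 of 16 tested genes called lower and 1 higher in dorsal tissue. SST, which is also listed, had a count of 0 in all 12 libraries and adds nothing to the sum. LAMP5 went the other way, at 134 to 190 CPM in dorsal and 78.8 to 117 CPM in ventral libraries. GAD1, which makes GABA, was lower (-0.51 ± 0.10, adjusted p = 0.0154), and GAD2, its partner enzyme, was level (-0.09 ± 0.19). Striatal markers summed to 121 to 186 CPM in dorsal and 146 to 188 CPM in ventral libraries, with 3 of 8 called lower, among them DRD1 (-3.53 ± 0.32), while the striatal dopamine receptor DRD2 had 0.75 ± 0.44. Thalamic markers summed to 114 to 182 and 231 to 547 CPM, with 3 of 8 called lower. That sum included CALB2, at 24 to 126 CPM in dorsal and 104 to 310 CPM in ventral libraries, which is also in the inhibitory neuron list. SLC17A6 of the thalamic list is also in the excitatory neuron list. Meningeal fibroblast markers summed to 161 to 266 and 362 to 681 CPM, with 6 of 9 called lower. Cajal-Retzius markers summed to 270 to 334 and 366 to 598 CPM, with 1 of 6 called lower, NDNF. NDNF, CALB2 and RELN of this list are also in the inhibitory neuron list. The rest, TP73 (0.74 ± 0.34), EBF3 (-0.11 ± 0.37) and CXCL14 (-0.14 ± 0.13), did not pass. The part of all these marker lists in the values of DLX6, MEIS1, MEIS2, PBX3 and LHX9 was not tested.

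**Figure D2:**
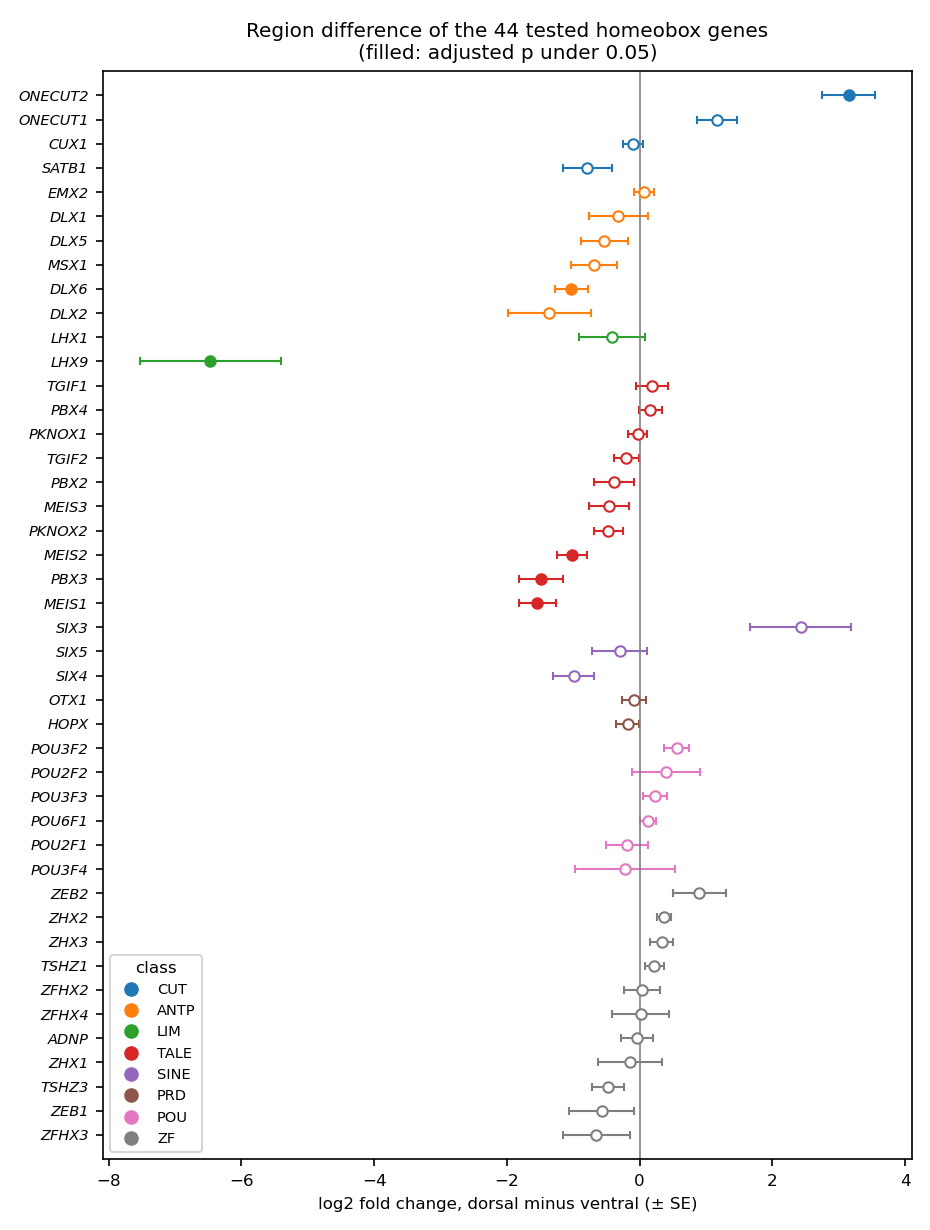
Log2 fold change of dorsal minus ventral hippocampus (horizontal axis, with SE) for the 44 tested members, grouped by class; filled points passed an adjusted p of 0.05. ONECUT2 lies at 3.15 and LHX9 at -6.47, and the other members lie between -1.54 and 2.43.

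Among the sine oculis genes SIX3, a factor of the rostral forebrain and eye, was higher in every dorsal library. It stood at 1.54, 1.24 and 1.33 CPM in dorsal control and 1.24, 1.77 and 0.817 CPM in dorsal stress libraries. The ventral control libraries held 0.288, 0 and 0.28 CPM and the ventral stress libraries 0, 0.711 and 0.179 CPM. The lowest dorsal library, dorsal stress 3, lay close to ventral stress 2. The difference of 2.43 ± 0.76 did not pass in edgeR (adjusted p = 0.12). It passed in DESeq2 (2.46 ± 0.71, adjusted p = 0.00839), in limma-voom (adjusted p = 0.0392) and after all libraries were thinned to the shallowest (adjusted p = 0.0389). SIX4, which is known from muscle and sensory tissue, had a value of the other sign (-0.99 ± 0.31, adjusted p = 0.117 in edgeR, 0.023 in DESeq2 and 0.114 in limma-voom), and SIX5 had -0.30 ± 0.41. Hypothalamic markers summed to 2.12 to 99.1 CPM in dorsal and 1.25 to 12.2 CPM in ventral libraries, with 0 of 5 called in edgeR and 3 at an unadjusted p under 0.05. In dorsal control libraries that sum was mostly POMC, at 17.4 to 96.2 CPM. POMC held 0.456 to 1.84 CPM in dorsal stress and 0.209 to 4.73 CPM in ventral libraries. Of 8 pituitary markers 0 were called, with 2 at an unadjusted p under 0.05. The summed pituitary level, 326 to 801 CPM in dorsal and 162 to 374 CPM in ventral libraries, was mostly CHGA, a granin that neurons also make (298 to 790 and 68.1 to 364 CPM). The pituitary hormone PRL did not follow the regions, at 0.348 to 91.7 CPM in dorsal and 1.04 to 73.8 CPM in ventral libraries. Their part in the SIX3 values was not tested.

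The POU factors, which join a POU-specific domain to a homeodomain, had 0 of 6 called in edgeR, with 1 at an unadjusted p under 0.05, and POU3F2 was called in DESeq2. POU3F2, a factor of upper-layer and other pallial neurons also named BRN2, had 0.56 ± 0.19 (adjusted p = 0.15 in edgeR, 0.0481 in DESeq2 and 0.134 in limma-voom), at 26.8 to 42.4 CPM in dorsal and 16 to 30.1 CPM in ventral libraries. Excitatory neuron markers summed to 5030 to 7500 and 2990 to 5290 CPM there, with 3 of 10 called higher and 1 lower in dorsal tissue. Its relative POU3F3 had 0.23 ± 0.18, and POU6F1 0.13 ± 0.12. POU2F1, a ubiquitous octamer-binding factor, had -0.19 ± 0.32, POU2F2 0.40 ± 0.51 and POU3F4 -0.22 ± 0.75, the last with the widest error of the class. The paired-like genes OTX1 (-0.09 ± 0.18) and HOPX (-0.18 ± 0.17) were close to 0. HOPX, a small homeodomain protein that does not bind DNA and marks neural stem cells and astrocytes, held between 267 and 596 CPM.

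Of the 11 zinc-finger homeobox genes none was called between regions in edgeR, with 2 at an unadjusted p under 0.05, ZHX2 and ZEB2. ZHX2 lay within narrow limits, from 21.1 to 24.7 CPM in the 6 dorsal libraries and from 16.2 to 18.8 CPM in the 6 ventral libraries. Its regions did not overlap, and its difference was 0.37 ± 0.11 (adjusted p = 0.111 in edgeR, 0.000261 in DESeq2). ZEB2, a repressor needed by migrating interneurons and myelinating cells, had 0.90 ± 0.40 (adjusted p = 0.352), and its paralogue ZEB1 -0.57 ± 0.49. Oligodendrocyte markers summed to 6950 to 11500 CPM in dorsal and 4080 to 8560 CPM in ventral libraries, with 1 of 10 called higher, and their part in the ZEB2 values was not tested. ZHX1, ZHX3, ADNP, ZFHX2, ZFHX3, ZFHX4, TSHZ1 and TSHZ3 had differences between -0.65 and 0.33, and adjusted p-values from 0.443 to 1. ADNP, a chromatin protein with a homeodomain, had -0.04 ± 0.24. Its reads cannot be told apart from those of an overlapping gene if strand was not used in counting, and the same holds for PBX2, PBX4 and POU2F1. RefSeq also places long non-coding RNA genes that the deposited gene table lacks over ONECUT2, MEIS2, SIX3 and some other members. Whether reads of these were counted to the members is not known.

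LHX2 and CUX2, matched by GeneID to the placeholder rows, were also scarce. LHX2, a selector gene of cortex and hippocampus, had 143 counts in all and a difference of 0.46 ± 0.50 (adjusted p = 0.951). CUX2, a gene of upper-layer cortical neurons, had 247 counts and -3.19 ± 1.11 (adjusted p = 0.177). Its dorsal libraries held 0 to 0.298 CPM. Its ventral libraries held 0, 0.645 and 2.97 CPM in control and 1.04, 0.158 and 2.29 CPM in stress, so that ventral control 1 and ventral stress 2 fell within the dorsal range.

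Of the homeobox genes outside the list 39 were tested, with a median of -0.14. Between regions 6 of the 39 were called, each lower in dorsal tissue. Calls over all tested genes leaned the same way, with 3.07% lower and 1.44% higher in dorsal tissue. This list too was chosen with earlier results of these data known, so the count is no test of these genes as a group. TSHZ2, the remaining teashirt gene, had -2.23 ± 0.30 (adjusted p = 0.00307), while the members TSHZ1 and TSHZ3 had 0.22 ± 0.14 and -0.48 ± 0.24. LHX6, a factor of interneurons from the medial ganglionic eminence, had -0.93 ± 0.13 (adjusted p = 0.0038), at 15.1 to 21 CPM in dorsal and 26.8 to 41.5 CPM in ventral libraries. BARX2 had 2 dorsal against 119 ventral counts, SEBOX none against 201 and MEOX2 10 against 193, and ALX1 had -1.91 ± 0.44 (edgeR adjusted p = 0.0031, 0.00785, 0.0238 and 0.0327). For SEBOX the ventral level was at least 63.6-fold higher, with a floor of 3 counts over the dorsal libraries.

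Within each condition fewer members passed. In control ewes ONECUT2 was the 1 member called of 44 (1.00% of all tested genes, 0.247% higher and 0.753% lower in dorsal tissue), and 10 had an unadjusted p under 0.05. In stressed ewes edgeR called 0 of 44 (0.444% of all genes, 0.0842% higher and 0.359% lower), with 9 at an unadjusted p under 0.05, while DESeq2 called 3 (ONECUT2, LHX9 and MEIS1) and limma-voom 0. The 2 conditions share no library, although every group entered one fit. The log2 fold changes had the same sign in both conditions in 35 of 44 members (79.5%) and in 72.1% of all tested genes, so that the members' share is near that of other genes. MEIS2 had -1.28 ± 0.31 in control and -0.77 ± 0.30 in stressed ewes, PBX3 -1.86 ± 0.47 and -1.10 ± 0.47, and DLX6 -1.12 ± 0.36 and -0.94 ± 0.36. In edgeR the difference between the regions' stress effects passed in 0 of 44 members (0% of all genes), with an adjusted p of 1 in each and 0 members at an unadjusted p under 0.05. DESeq2 and limma-voom also called 0.

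Chronic stress was compared with control within each region. In dorsal hippocampus edgeR called 0 of 44 members (0% of all tested genes), 0 had an unadjusted p under 0.05 (152 of all 17806 genes did), and DESeq2 and limma-voom called 0. The median was 0.13, with 31 members above 0. Over all 17806 genes it was 0.01, with 9071 above 0. Many members shared the within-group axis described below, so their signs are not independent. The 3 members with the smallest p were LHX9, which rests on 9 counts of 1 library, PBX3 (0.78 ± 0.47, adjusted p = 1) and ONECUT1 (0.69 ± 0.43, adjusted p = 1). In 4 members the stress and control libraries did not overlap, namely ONECUT1, EMX2, POU3F2 and TSHZ3, each higher in stress, and this held for 5.13% of all tested genes. For ONECUT1 the lowest dorsal stress and the highest dorsal control library were both at 10.1 CPM to 3 digits. For TSHZ3 the lowest dorsal stress library was at 7.46 CPM and the highest dorsal control library at 7.44 CPM. For EMX2 these limits were 21.5 and 21.2 CPM. The dorsal control totals, from 24952808 counts, all exceeded the dorsal stress totals, which reached 21244822.

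In ventral hippocampus edgeR called 0 of 44 members for stress (0% of all genes), 0 had an unadjusted p under 0.05 (142 of all genes), and DESeq2 and limma-voom called 0. The median was 0.01. The smallest p-values belonged to ZFHX4 (-1.21 ± 0.62), HOPX (-0.42 ± 0.24) and ONECUT1 (0.67 ± 0.43), each with an adjusted p of 1. ZFHX4, a large zinc-finger homeodomain factor, stood at 57.7, 9.32 and 15.7 CPM in ventral control and 9.52, 10.9 and 15.4 CPM in ventral stress libraries. Ventral control 1 alone was high, and without it the difference was -0.07. HOPX stood at 380, 596 and 465 CPM in ventral control and 322, 429 and 330 CPM in ventral stress libraries, and these overlapped. In dorsal tissue ZFHX4 held 28.2, 13.6 and 12.5 CPM in control and 28, 13.6 and 14.8 CPM in stress libraries, and HOPX 409, 515 and 313 CPM in control and 267, 385 and 324 CPM in stress libraries, again with overlap. Groups did not overlap for TGIF1 (0.40 ± 0.34) and POU6F1 (-0.24 ± 0.17), 2 of 44 members, and for 2.86% of all genes. For the difference between the stress effects the smallest p-values were those of PBX4 (0.67 ± 0.34), POU6F1 (0.39 ± 0.24) and ZFHX4 (1.27 ± 0.87). PBX4 stood at 8.17, 5.89 and 5.78 CPM in dorsal control, 8.4, 7.75 and 8.58 CPM in dorsal stress, 8.77, 6 and 7.59 CPM in ventral control and 4.91, 6.2 and 6.38 CPM in ventral stress libraries. The libraries of stress and control overlapped in both regions. POU6F1, a POU factor of the adult brain, stood at 47.2, 41.3 and 39.3 CPM in dorsal control, 54.3, 40 and 47.5 CPM in dorsal stress, 48.3, 40.9 and 44.2 CPM in ventral control and 38.5, 36.3 and 38.5 CPM in ventral stress libraries. Its stress libraries were the lower ones in ventral tissue and overlapped with control in dorsal tissue.

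**Figure D3:**
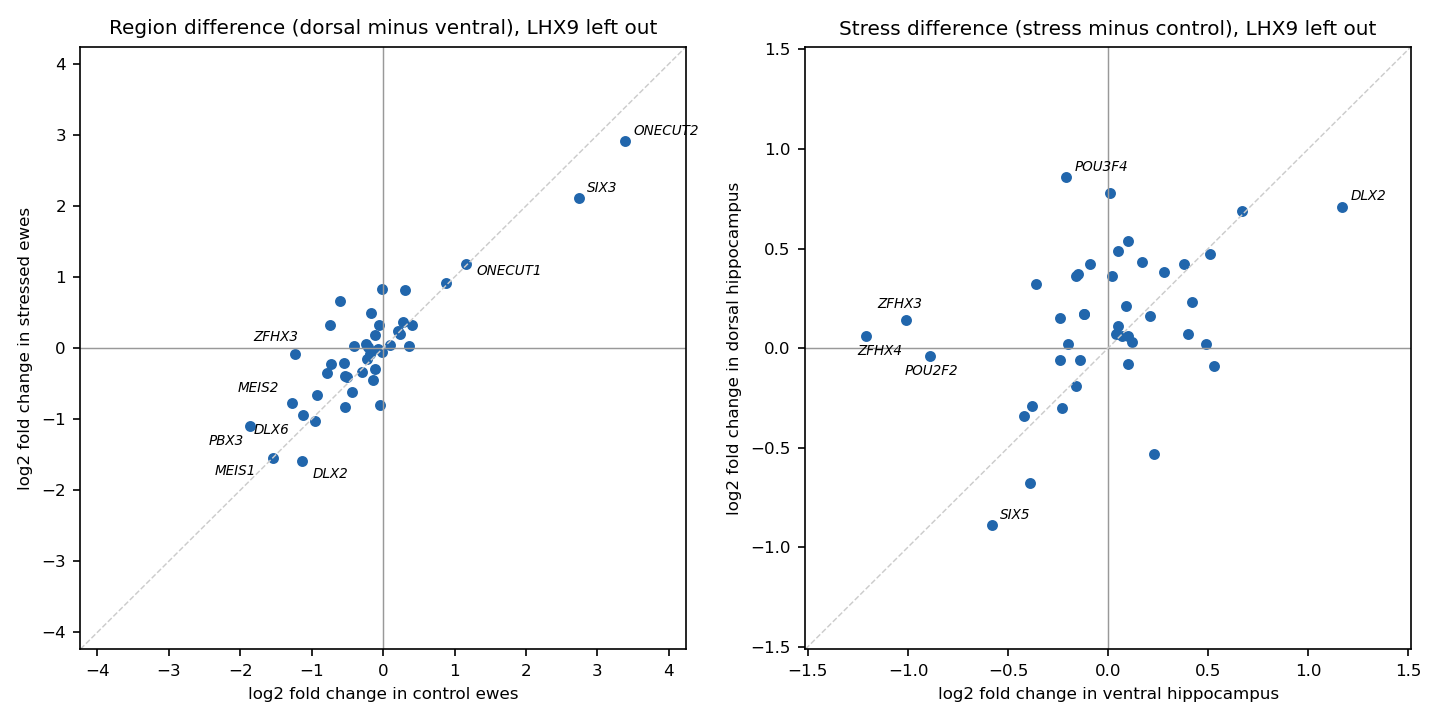
Log2 fold changes of the tested members other than LHX9: left, dorsal minus ventral in control (horizontal) against stressed ewes (vertical); right, stress minus control in ventral (horizontal) against dorsal hippocampus (vertical), with equal values on the dashed lines. ONECUT2 lies at 3.39 and 2.91 on the left, while on the right no member passed a test.

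A large part of the spread between libraries of one group was common to many members. The main axis of the deviations from group means held 66.1% of that variance over all tested genes. In 13 of 44 members it held at least 80% of the gene's own within-group variance, beside 40.9% of all tested genes. The 13 are 29.5% of the 44. Of these 13, 9 moved one way along the axis (SATB1, PBX2, SIX4, POU2F1, POU3F4, ZHX1, ZEB1, ZEB2 and ADNP) and 4 the other way (MEIS3, SIX5, POU2F2 and ZFHX2). ZHX1, a zinc-finger and homeobox repressor, stood at 27.7, 78.2 and 68 CPM in dorsal control and at 29.1, 85.2 and 111 CPM in dorsal stress libraries. It stood at 21.3, 50.2 and 126 CPM in ventral control and at 64, 48.4 and 127 CPM in ventral stress libraries. POU2F2, an octamer-binding factor of B cells and neurons, was highest where ZHX1 was lowest: 106, 42 and 40 CPM in dorsal control, 115, 35.4 and 33.1 CPM in dorsal stress, 132, 41.8 and 17.6 CPM in ventral control and 29.7, 48.2 and 25.3 CPM in ventral stress libraries. Dorsal control 1, dorsal stress 1 and ventral control 1 stood apart in both genes. POU3F4, a factor of the hypothalamus and inner ear, ranged from 0.298 CPM in dorsal stress 1 to 5.77 CPM in ventral control 3.

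**Figure D4:**
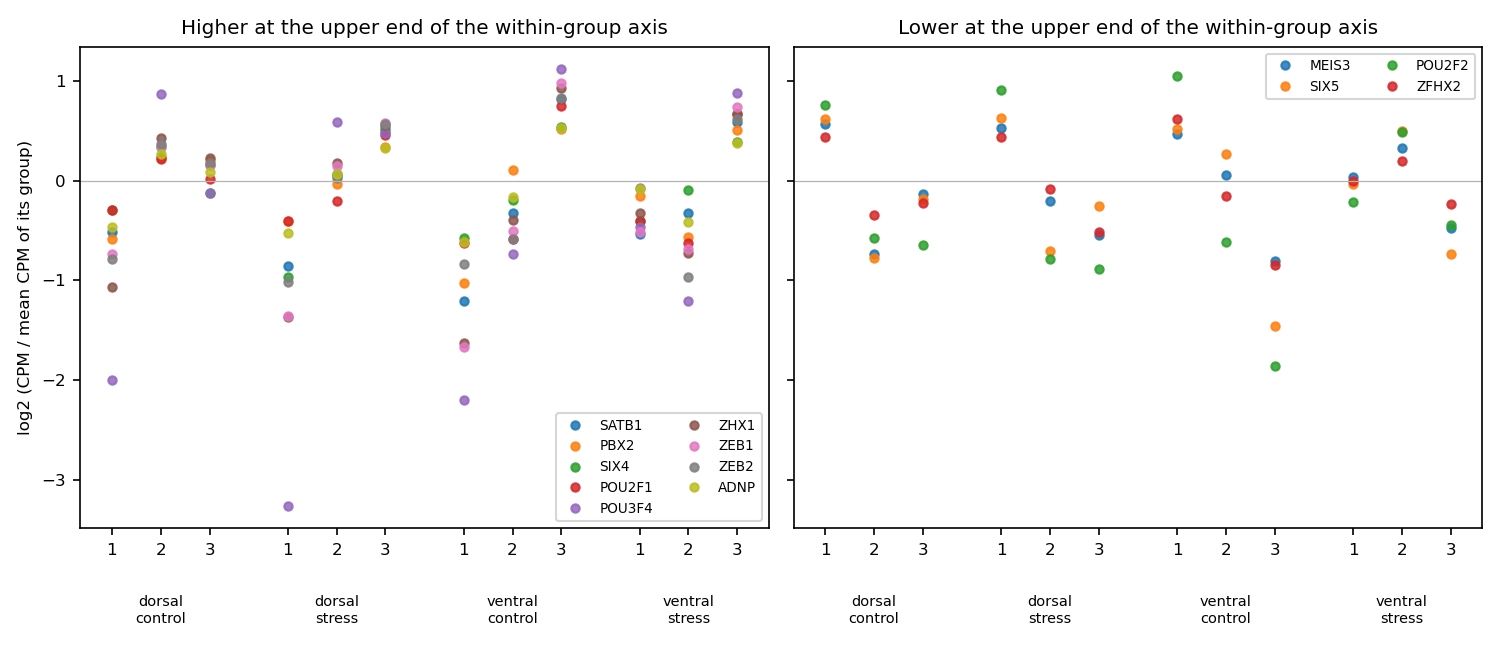
Deviation of each library from its group's mean, as log2 of CPM over the mean CPM of the group (vertical axis), for the 13 members with at least 80% of their within-group variance on the main axis; points are genes, and columns are libraries 1 to 3 of each group. The 9 members on the left are low in dorsal control 1, dorsal stress 1 and ventral control 1, and the 4 on the right are high there.

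ONECUT2 and LHX9 had little of this spread, with 5.47% and 0.0188% of their within-group variance on the axis, and MEIS1, MEIS2 and PBX3 had 57.6%, 67.2% and 70.1%. Without the 3 libraries lowest on the first principal component 5 members were called between regions: ONECUT2 (3.66 ± 0.37), LHX9, MEIS1 (-1.57 ± 0.31), MEIS2 (-1.01 ± 0.21) and PBX3 (-1.45 ± 0.25). Without the 3 highest there were 3: ONECUT2 (3.04 ± 0.51), MEIS1 (-1.52 ± 0.23) and ONECUT1 (1.41 ± 0.21). LHX9, MEIS2, PBX3 and DLX6 then had adjusted p-values of 0.0649, 0.0892, 0.13 and 0.185. When this axis was a covariate in the fit, 18 members were called, 7 higher and 11 lower in dorsal tissue, among 3761 genes in all (21.1% of those tested). ZEB2 (0.94 ± 0.11), SATB1 (-0.71 ± 0.09) and MEIS3 (-0.47 ± 0.09) were among those added. The axis was drawn from deviations from the same group means, so smaller errors and more calls over all genes follow by construction. What the axis reflects was not tested.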

How the data were processed

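The authors deposited one table of raw read counts per gene for 12 libraries, made with the TruSeq stranded mRNA kit per the labels' protocols. Counting with featureCounts 2.0.0 is named in the submitters' processing notes, which list TopHat2 2.1.1 and Bowtie2 2.3.5.1 too, with no order or role. For genome build, annotation and strand setting, the entry is: not given in the sources used here. No positions are printed. Columns were matched by the names in the sample descriptions. The RefSeq annotation of ARS-UI_Ramb_v3.0 (sheep) was used for names, GeneIDs, overlaps and gene order, and matched all 55 listed genes.

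The fit used edgeR 4.0.16 (R 4.3.3): filterByExpr by group, TMM, and the robust quasi-likelihood fit with 1 mean for each of 4 groups. Each SE was taken from the fold change and its F statistic (size over root F). The 6 contrasts were tested with Benjamini-Hochberg adjustment over all 17806 genes. Log2 CPM for components and scores used a prior count of 2. Values per library are given for called members and for the 3 with the smallest p in the stress contrasts, other members are given by class, and of the homeobox genes outside the list the 6 with the smallest region p are named. Values per library of further members (ONECUT1, SIX3, ZHX1, POU2F2 and CUX2) were added after they were seen. Members and lists were chosen with earlier results of these data known. Nothing in the labels states that same-numbered pools hold the same ewes, and p-values measure the spread between pools. Alternatives were RLE, no filter, 1 CPM in 3 libraries, DESeq2 1.42.0, limma-voom (limma 3.58.1), a replicate block, a choroid plexus score, the residual axis, thinned counts, 1 region alone and each library left out. The fits were tested on simulated data drawn without the axis shared within groups, so that test does not cover this feature of the libraries. Leaving out the libraries at either end of the first component was added after seeing the data.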

Additional observations from a re-analysis of the deposited data

How the results depend on the processing

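Between regions 11 members were called by DESeq2, 18 with the residual axis as a covariate and 3 without the 3 libraries highest on the first component, against 6 in the report. Other settings gave 5 or 6, and leaving out 1 library gave 3 to 5. All tested genes called numbered 1558, 3761 and 363 under the first 3 settings and 420 to 1091 without 1 library, against 803. In control ewes the count of 1 became 6 with DESeq2, 2 with limma-voom, 13 with the residual axis, 2 with thinned counts, and 0 without the 3 highest libraries, and 0 to 3 without 1 library. With the choroid plexus score it stayed at 1, but the member called was MEIS1 (-2.48, adjusted p = 0.0411) and not ONECUT2. In stressed ewes the count of 0 became 3 with DESeq2, 2 with the choroid plexus score and 11 with the residual axis, and 0 to 1 without 1 library. For stress and for the difference between its effects the count was 0 under every setting run. PBX3 missed the threshold with limma-voom (adjusted p = 0.0603), and DLX6 with no filter, limma-voom and thinned counts (0.0685, 0.0668 and 0.111). The residual axis was drawn from the same libraries and group means, so its higher counts were built in. Causes of the other changes were not tested.

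Same-numbered dorsal and ventral pools had correlations of 0.72, -0.12 and 0.37 in control and 0.21, -0.23 and 0.76 in stressed ewes. Not every library correlated best with its own number. The main axis holds 66.1% of the within-group variance, so these correlations cannot show whether pools share ewes. The numbers were not taken as a pairing. With a replicate block 6 members were called between regions, 0 in control and 0 in stressed ewes. LHX9 was then not among them (adjusted p = 0.0526), ONECUT1 was (0.0395), and ONECUT2 in control ewes had 0.0589. No block was possible for stress, whose sides hold different ewes.

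Signs turned only in comparisons in which the member was not called in the report. With the choroid plexus score the region value was 0.18 for MEIS3, 0.67 for ZFHX3, -0.08 for POU3F3, 0.07 for LHX1, 0.44 for SIX5 and 0.25 for OTX1, and the difference between stress effects was -0.10 for ZFHX4. Without the 3 highest libraries it was 0.01 for ZEB1, 0.22 for POU2F1, 0.68 for POU3F4, 0.36 for ZHX1, 0.16 for ADNP and -0.06 for ZFHX2. Without the 3 lowest it was 0.04 for POU3F4, 0.01 for ZHX1, 0.04 for ADNP and -0.02 for ZFHX2, and the dorsal stress value of LHX9 was 0.00. Thinned counts gave -0.00 for EMX2. Leaving out 1 library gave -0.01 to 0.96 for POU2F2, -0.34 to 0.11 for POU2F1, -0.20 to 0.05 for OTX1, -0.00 to 0.15 for EMX2, -0.62 to 0.44 for POU3F4, -0.35 to 0.31 for ZHX1, -0.09 to 0.04 for PKNOX1, -0.16 to 0.14 for ADNP, -0.11 to 0.26 for ZFHX2, -0.21 to 0.59 for ZFHX4 and -4.57 to 0.00 for LHX9 under stress in dorsal tissue. Leaving out the libraries at either end of the first component was chosen after seeing the data. At the shallowest depth 3 counts stand for 0.245 CPM, which limits what can be said of LHX9 and SIX3 in single libraries and of the 9 untested members.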
